A study of Mus musculus with 22 samples.

Results

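The mammary gland of the mouse lies within the inguinal fat pad, so that bulk RNA of inguinal white adipose tissue (IWAT) also carries transcripts of milk ducts. Here 10 genes of ductal epithelium were followed, found by symbol among the 23420 symbols of the deposited count table: the basal keratins Krt5, Krt14 and Krt17, the keratins of simple epithelium Krt7, Krt8, Krt18 and Krt19, the epithelial adhesion genes Epcam and Cdh1, and the luminal transcription factor Elf5. All 10 were in the table and all 10 were among the 14458 genes that passed the filter on low counts.

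Mammary ducts have an inner luminal layer, which lines the lumen and can produce milk, and an outer basal layer of contractile myoepithelial cells. Keratins are intermediate filament proteins that assemble from one type I and one type II chain; Krt5 (type II) pairs with Krt14 (type I) in basal cells and Krt8 (type II) with Krt18 (type I) in luminal cells. Cdh1 encodes E-cadherin, the adhesion molecule of epithelial junctions, Epcam encodes a surface glycoprotein that is used to sort epithelial cells, and Elf5 is needed for the alveolar cells that secrete milk.

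RNA was sequenced from both inguinal pads of 11 wildtype female C57Bl/6 mice, 5 lean on chow and 6 obese on high fat diet (HFD), each diet given for 16 weeks. By the study's methods the mice were about 20 weeks old when cells of the breast cancer line E0771, itself derived from a C57Bl/6 mouse, were placed with Matrigel and PBS in the left pad, which gave tumor-associated IWAT. The right pad of the same mouse received Matrigel and PBS without cells and gave control IWAT, and both were taken 2 weeks later. Libraries held 5759775 to 8598108 counts on genes. As a check of the tissue, 8 adipocyte markers summed to 1827 to 22987 CPM (counts normalised to library size) over all 22 libraries, and none of them was at 0 in any group. Markers of neighbouring tissue stood out in some pads. In the obese control pad of mouse 1, 4 B cell markers reached 490.2 CPM and 3 skeletal muscle markers 1739.9 CPM. The B cell sum was also 423 CPM in the obese control pad of mouse 3 and 113 CPM in its tumor-associated pad. The muscle sum was 165 CPM in the obese tumor-associated pad of mouse 8. Group medians were 1.33 to 5.14 CPM for B cell and 2.46 to 20.2 CPM for muscle markers. Markers of skin were low, with the 11 epidermal and hair follicle genes in the table (Krt15 is on the basal list as well) summing to between 5.41 and 64.0 CPM, 5 mesothelial genes to at most 13.7 CPM, and the Langerhans cell gene Cd207 to at most 1.5 CPM.

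The loci lie in few places (GENCODE M21 annotation, GRCm38). The type II genes Krt7 (chr15:101411043-101430313), Krt5 (chr15:101707070-101712898) and Krt8 (chr15:101996698-102004482) share chromosome 15 with Krt18 (chr15:102028180-102032027), the one type I gene outside the type I cluster. The start of Krt18 and the start of Krt8 face each other across 23697 bases. Krt19 (chr11:100140810-100148665), Krt14 (chr11:100203162-100207548) and Krt17 (chr11:100256217-100261029) follow each other on chromosome 11. Cdh1 (chr8:106603351-106670246), Epcam (chr17:87635979-87651129) and Elf5 (chr2:103411688-103450989) stand alone, and all 10 genes are protein coding.

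The promoters of the Krt8 and Krt18 pair and of Epcam are shown because Krt18 and Epcam fell in obese tumor-associated IWAT while Krt8 did not pass the test there, as described further on. Each run is 250 bases before and 50 bases after the start site in RefSeq (GRCm38.p6), written 5′ to 3′ on the strand of the gene, at chr15:102004293-102004592 (minus strand), chr15:102027966-102028265 (plus strand) and chr17:87635729-87636028 (plus strand). Capitals mark the E-box CACCTG, which the Snai and Zeb repressors of Cdh1 are known to bind, on either strand (CAGGTG is its other strand). TATAAA, the letters of a TATA box, is marked on either strand as well.
Krt8: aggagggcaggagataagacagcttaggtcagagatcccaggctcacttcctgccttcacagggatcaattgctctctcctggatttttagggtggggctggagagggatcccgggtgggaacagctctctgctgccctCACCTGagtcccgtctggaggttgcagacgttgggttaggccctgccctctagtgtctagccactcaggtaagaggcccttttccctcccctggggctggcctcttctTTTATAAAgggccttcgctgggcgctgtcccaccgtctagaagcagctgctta
Krt18: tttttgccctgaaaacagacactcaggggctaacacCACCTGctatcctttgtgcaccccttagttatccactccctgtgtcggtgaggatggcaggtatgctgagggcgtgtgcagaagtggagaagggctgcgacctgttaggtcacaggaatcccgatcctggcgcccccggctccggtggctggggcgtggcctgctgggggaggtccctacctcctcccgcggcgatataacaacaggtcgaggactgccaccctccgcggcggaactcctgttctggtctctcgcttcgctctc
Epcam: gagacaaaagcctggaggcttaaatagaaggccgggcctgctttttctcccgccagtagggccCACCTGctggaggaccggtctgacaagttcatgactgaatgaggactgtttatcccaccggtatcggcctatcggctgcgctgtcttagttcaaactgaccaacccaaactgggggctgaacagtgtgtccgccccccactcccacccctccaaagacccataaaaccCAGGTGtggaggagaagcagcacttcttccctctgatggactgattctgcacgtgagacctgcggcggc

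RefSeq entries were matched for 7 of the 10 genes, giving 8 promoters since Elf5 has 2 start sites; Krt17, Krt19 and Cdh1 were not matched. CACCTG was present in 7 of the 8 promoters, and in 20.2% of all 32851 mouse promoters of the same length. The window without a match was that of Krt14, chr11:100205981-100206280. It lies inside the Krt14 locus given above and not at its 5′ end. The windows of Krt7 and Elf5 also lie inside their loci. TATAAA was present in 1 of the 8, that of Krt8, and in 13.6% of all promoters. The Krt8 matches on the 2 strands overlap and begin at -3 and -1 from the start site used. They span that site and do not lie upstream of it. AACCGGTT, the core bound by Grainyhead-like factors, was present in 0 of the 8 and in 0.146% of all promoters. These are matches of letters in a window and no binding was measured.

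Levels between genes were compared as CPM per kilobase of exon (mean ± SD). In lean control IWAT the order ran from Krt19 (211 ± 76.5) and Krt18 (196 ± 59.1) through Krt8 (131 ± 34.3), Epcam (67.6 ± 8.25), Krt5 (39.3 ± 8.42), Krt14 (36.4 ± 8.52), Cdh1 (26.9 ± 4.72), Krt7 (18.5 ± 7.17) and Krt17 (17.3 ± 9.08) to Elf5 (12.9 ± 4.15). Thus the keratins of simple epithelium other than Krt7 were the most abundant per length, and Krt19 and Krt18, Krt5 and Krt14, and Krt7 and Krt17 were neighbours that differed by less than their SD. In obese tumor-associated IWAT, Krt8 came first at 69.1 ± 18.2 CPM per kilobase, ahead of Krt19 at 39.5 ± 27.5 and Krt18 at 39.4 ± 29.7; it was the third gene in each of the 3 other groups. Counting every annotated exon in place of the basic set lowered the mean of Krt7 in lean control IWAT from 18.5 to 10.8 and that of Elf5 from 12.9 to 5.82 CPM per kilobase. It also lowered the mean of Krt19 there from 211 to 179.5, below Krt18 at 196, so the order of these 2 genes depends on the annotation.

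Whether a tumor in the pad changed these genes in lean mice was addressed first. None of the 10 genes was called in lean tumor-associated against lean control IWAT (edgeR quasi-likelihood test, adjusted p under 0.05), and 0 had an unadjusted p under 0.05, while 4.18% of all genes tested were called; DESeq2 also called 0 of the 10. The median log2 fold change over the 10 genes was 0.06, beside 0.01 over all genes tested, and the 10 values ran from -0.04 to 0.21 with standard errors of 0.27 to 0.71. The Epcam levels were 166, 128, 128, 147 and 128 CPM in the control pads of lean mice 0, 2, 3, 6 and 9. In their tumor-associated pads Epcam was at 125, 90.2, 156, 192 and 136 CPM. The ranges overlapped, with Epcam lower beside the tumor in mice 0 and 2 and higher in mice 3, 6 and 9, and the log2 fold change was 0.00 ± 0.36 (adjusted p = 0.998). Krt18 was at 388, 269, 347, 188 and 215 CPM in the lean control pads and at 315, 201, 472, 229 and 262 CPM in the tumor-associated ones. It moved down in the same 2 mice and up in the same 3, as did each of the other genes: all 10 were lower in the tumor-associated pad of lean mice 0 and 2 and all 10 were higher in mice 3, 6 and 9. These shared shifts were small, with a median over the 9 genes other than Krt8 between -0.42 and 0.31 on the log2 scale per mouse.

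**Figure D1:**
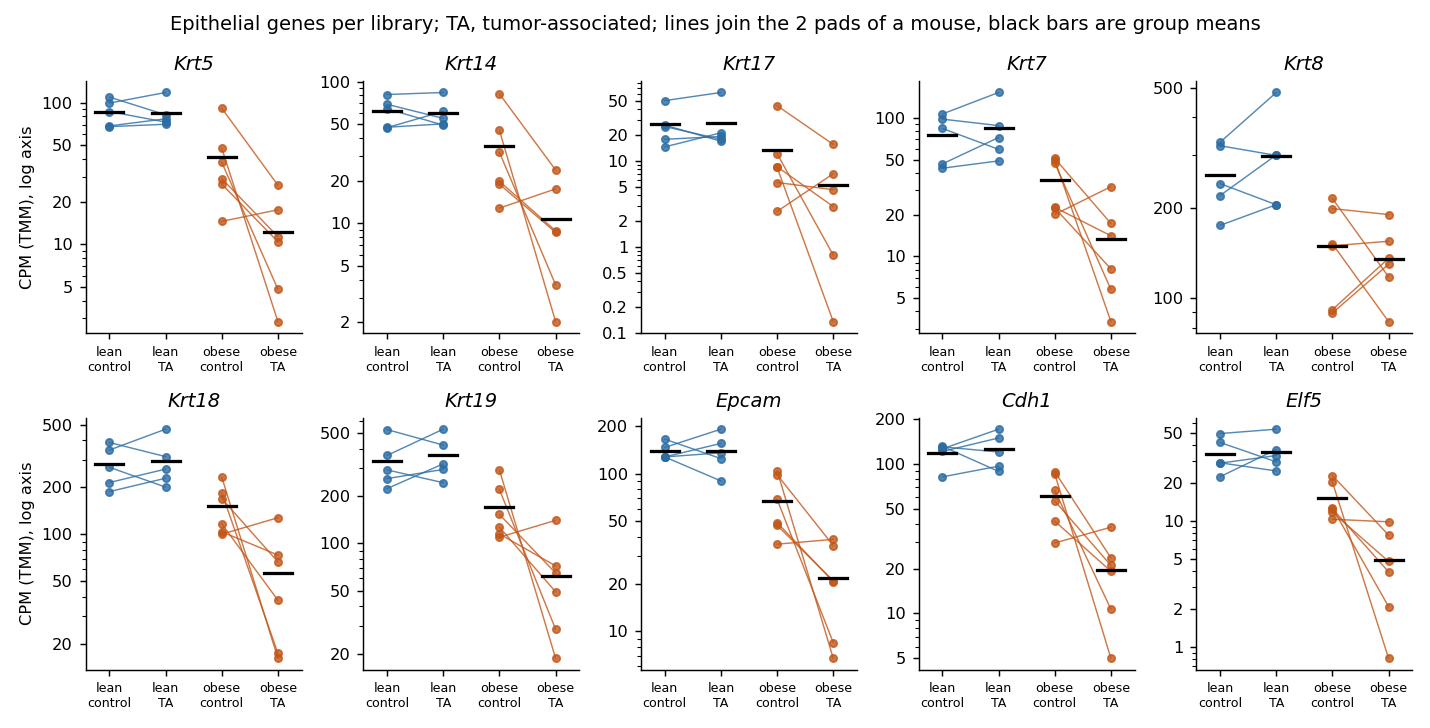
Normalised counts (CPM, log axis, a separate range for each gene) of the 10 genes in 22 libraries; each point is one pad, lines join both pads of a mouse and black bars are group means (5 lean and 6 obese mice). The lean pads overlap for each of the 10 genes, whereas most lines of the obese mice run down towards the tumor-associated pad except for Krt8.

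In obese mice, 8 of the 10 genes fell in tumor-associated against control IWAT and 0 rose: Krt5, Krt14, Krt7, Krt18, Krt19, Epcam, Cdh1 and Elf5. Of all genes tested, 27.7% were called lower and 26.8% higher in this comparison, so calls were common. The median log2 fold change of the 10 genes was -1.53, against -0.02 over all genes tested. CPM are shares of a library. In bulk tissue, fewer epithelial cells, less RNA per epithelial cell and more RNA from other cells cannot be told apart.

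Among the basal keratins, Krt5 in obese control IWAT ranged from 14.5 CPM through a median of 33.5 to 91.4 CPM. In obese tumor-associated IWAT it ranged from 2.84 CPM through 10.8 to 26.1 CPM. The groups overlapped, because the control pad of mouse 1 was low and the tumor-associated pad of mouse 2 was the highest of its group. Krt5 fell 3.38-fold (log2 fold change -1.76 ± 0.42, adjusted p = 0.00177), with the lower value beside the tumor in 5 of 6 mice. Its partner Krt14 ranged from 12.8 through 25.7 to 81.9 CPM in control and from 2.03 through 8.75 to 23.8 CPM in tumor-associated IWAT, and fell 3.25-fold (-1.70 ± 0.47, adjusted p = 0.00465). Krt17, a basal keratin that is also induced in stressed epithelium, had the widest spread. It ranged from 2.59 to 44.1 CPM in control and from 0.135 CPM, a single count in mouse 4, to 15.6 CPM in tumor-associated IWAT. The change of Krt17 did not pass (-1.38 ± 0.70, adjusted p = 0.0962), although it too was lower in 5 of 6 mice.

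Of the keratins of simple epithelium, Krt18 ranged from 100.3 CPM through 143 to 233 CPM in obese control IWAT. It ranged from 16.1 CPM through 52.3 to 128 CPM in obese tumor-associated IWAT. Only mouse 1 reached the control range, and Krt18 fell 2.67-fold (-1.41 ± 0.40, adjusted p = 0.00568). Krt19, a small type I keratin of ductal epithelium, fell 2.72-fold (-1.44 ± 0.38, adjusted p = 0.00342), from 109.6 to 293 CPM in control down to 18.7 to 140.2 CPM beside the tumor. Krt7, another ductal keratin, fell 2.63-fold (-1.39 ± 0.44, adjusted p = 0.0109).

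Krt8, the type II partner of Krt18, was the exception. In obese control IWAT it ranged from 89.5 CPM through a median of 151 to 215 CPM. In obese tumor-associated IWAT it ranged from 83.8 CPM through 133 to 190.1 CPM. The groups lay almost on top of each other, with Krt8 higher beside the tumor in 3 mice and lower in 3, and the log2 fold change was -0.14 ± 0.25 (adjusted p = 0.654).

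The adhesion genes and Elf5 moved with the other keratins. Epcam ranged from 35.8 CPM through 59.1 to 105 CPM in obese control and from 6.76 CPM through 20.8 to 38.4 CPM in obese tumor-associated IWAT. It fell 3.1-fold (-1.63 ± 0.35, adjusted p = 0.000749). Cdh1 went from 29.7 CPM through 61.8 to 89.3 CPM down to 5.01 CPM through 20.1 to 37.9 CPM, a 3.15-fold fall (-1.65 ± 0.34, adjusted p = 0.000571), the smallest adjusted p of the 10 genes. For both, the ranges met only in mouse 1, whose control pad was the lowest and whose tumor-associated pad the highest of its group. Elf5 was the one gene whose groups did not overlap, from 10.3 to 22.9 CPM in control and from 0.812 to 9.83 CPM in tumor-associated IWAT; 9.66% of all genes tested were lower without overlap. Elf5 fell 3.08-fold (-1.62 ± 0.38, adjusted p = 0.00154).

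**Figure D2:**
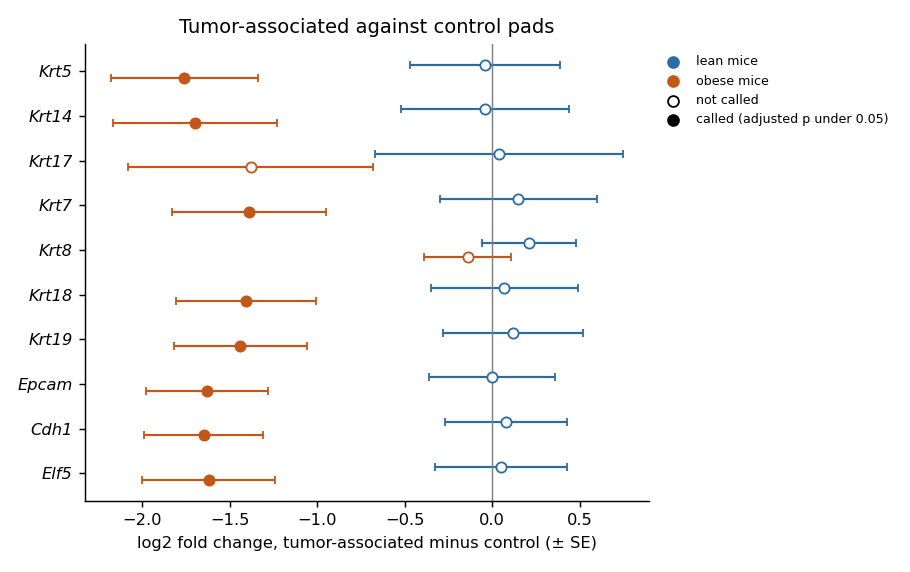
Log2 fold change (± SE, edgeR) of tumor-associated against control IWAT for each gene, in lean mice (blue) and obese mice (orange); filled points passed an adjusted p of 0.05. All lean values lie between -0.04 and 0.21, and 9 obese values lie between -1.76 and -1.38, while that of Krt8 is -0.14.

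The size of the fall differed between obese mice more than between genes. The median log2 difference between the pads over the 9 genes other than Krt8 was -3.95 in mouse 4 and -2.97 in mouse 0. It was -1.54 in mouse 2, -1.35 in mouse 8 and -1.10 in mouse 3. In mouse 1 it was 0.35, so that the epithelial genes of that mouse were not lower beside the tumor, apart from Elf5 at -0.07. Its control pad was the lowest of the 6 for Krt5, Krt14, Krt17, Krt7, Krt18, Krt19, Epcam, Cdh1, Elf5 and Krt8, and it was the pad with the highest B cell and muscle markers named above, whose part in these levels was not tested. Without that mouse the Cdh1 change was -2.12 and that of Elf5 -2.06 on the log2 scale.

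**Figure D3:**
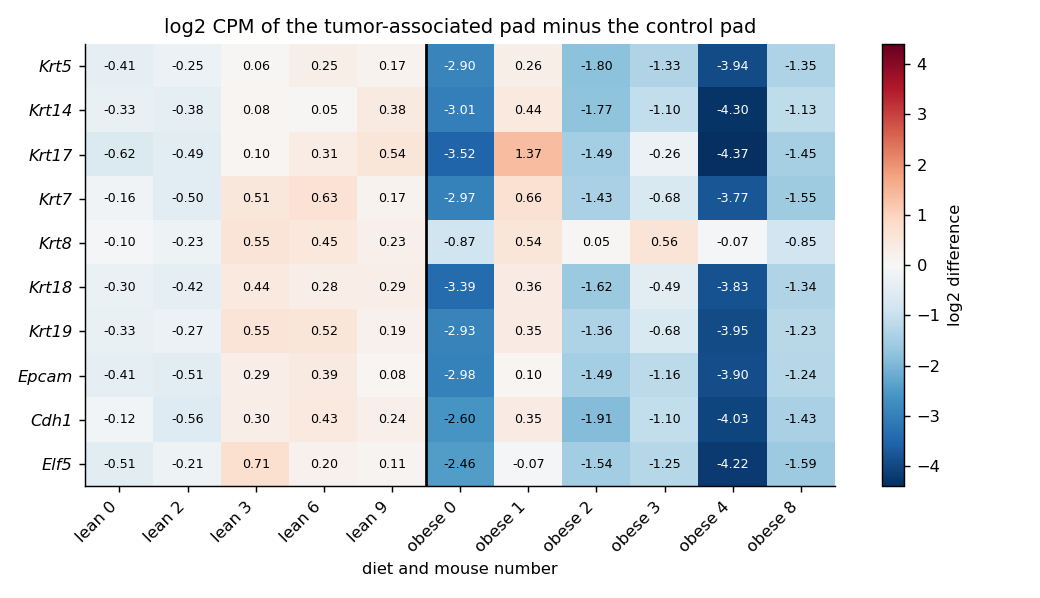
Difference in log2 CPM between the tumor-associated and the control pad of each mouse (5 lean, left of the line, and 6 obese) for the 10 genes; blue is lower beside the tumor. Most columns are close to uniform in colour except in the Krt8 row, which reads between -0.87 and 0.56 in the obese mice.

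By their sums in the obese tumor-associated pads, adipocyte genes were lowest and germline and proliferation genes highest in mice 0, 2 and 4. This ranks levels beside the tumor and not differences between the pads of a mouse. In the control pads, mouse 2 had the highest sums of germline genes (85.7 CPM) and proliferation genes (234 CPM) of the obese mice. Macrophage markers beside the tumor were highest in mouse 0 but lowest in mice 2 and 4. The sum of 4 macrophage markers beside the tumor was 719.8 CPM in mouse 4, 1139 in mouse 2 and 2379 in mouse 0. It was 2118 to 2365 CPM in mice 1, 3 and 8, and 565 to 804 CPM in obese control IWAT. The 8 adipocyte markers all fell in obese tumor-associated IWAT (median log2 fold change -1.26), and their sum was 1827 CPM in mouse 4 and 3107 CPM in mouse 0 against 6761 CPM in mouse 2 and 8569.7 to 11229.7 CPM in mice 3, 8 and 1. A set of 10 germline and embryonic genes, picked in an earlier look at these same libraries because they set obese tumor-associated IWAT apart and so no independent evidence, all rose in this comparison. Their sum in tumor-associated IWAT was 999.7 CPM in mouse 4, 509 in mouse 2, 441 in mouse 0, 171 in mouse 3, 102 in mouse 8 and 40.1 in mouse 1. In obese control IWAT it was 5.99 to 85.7 CPM, in lean tumor-associated IWAT 0.622 to 9.09 CPM and in lean control IWAT 0.348 to 2.45 CPM, with 1 of the 10 genes at 0 throughout the last group. The 4 proliferation genes Mki67, Top2a, Ccnb1 and Cdk1 also rose, from a median sum of 142 CPM to one of 741 CPM, and the highest sum, 1469.7 CPM, was again in mouse 4. The part of all these transcripts in the fall of the epithelial genes was not tested. With the tumor-associated libraries of mice 0, 2 and 4 left out, those with over 400 CPM of the germline genes, 5 of the 10 epithelial genes were called lower. These 3 mice also had the largest epithelial falls above, and the cut was set after values were seen. Smaller falls without them were thus fixed in advance, and the fit is given as a description. Krt7 (-0.76, adjusted p = 0.189), Krt18 (-0.77, adjusted p = 0.0837) and Krt19 (-0.89, adjusted p = 0.0693) were then no longer called by edgeR, in a fit with 3 obese tumor-associated libraries.

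The ratio of Krt8 to Krt18 counts was examined after these values were seen and is given as a description. In lean control IWAT the ratio was 0.829, 0.893, 0.953, 1.17 and 0.812 in mice 0, 2, 3, 6 and 9. In lean tumor-associated IWAT it was 0.951, 1.02, 1.03, 1.31 and 0.779 in the same order, and in obese control IWAT it ranged from 0.852 through a median of 0.894 to 1.28. The partner keratins thus kept close to equal counts in 16 libraries. In obese tumor-associated IWAT the ratio was 11.8 in mouse 4, 6.8 in mouse 0, 4.09 in mouse 2, 1.84 in mouse 3, 1.26 in mouse 8 and 1.01 in mouse 1. The 3 mice with the highest ratios were the 3 with the most germline gene counts, and mouse 1 was lowest on both. In mouse 4 there were 1405 Krt8 counts beside 119 of Krt18, and in mouse 0 there were 734 beside 108. Over the 22 libraries the log2 CPM of Krt8 had r of 0.55 to 0.69 with the 9 other genes, which among themselves had r of 0.75 to 0.99. All these points share library, depth and group. With the group means taken out, Krt8 had r of -0.07 to 0.34 with the 9 others, and these had 0.37 to 0.99 among themselves.

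**Figure D4:**
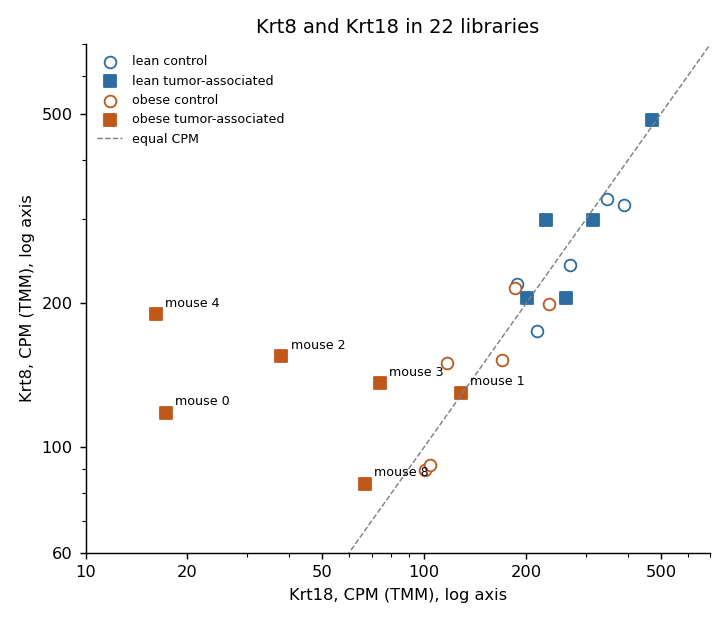
Krt8 against Krt18 (CPM, log axes) in 22 libraries, circles for control and squares for tumor-associated IWAT, blue for lean and orange for obese mice; the dashed line marks equal CPM. Obese tumor-associated pads of mice 4, 0 and 2 lie far to the left of the line, at Krt18 of 16.1, 17.3 and 37.9 CPM with Krt8 of 190.1, 118 and 155 CPM.

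Krt8 is also the gene here whose reads are hardest to place. Of all 50-base windows along its longest transcript, 29.7% occur identically in the pseudogene Krt8-ps or in Gm36026, which overlaps it on the other strand, and neither has a line in the count table. The share was 14.4% for Krt14 (with Krt16 and Krt17), 12.2% for Krt5 (with Krt6a, Krt6b, Gm5478 and the other-strand Gm44323), 3.99% for Krt17 and at most 0.72% for the 6 other genes. How shared reads were counted, and whether strand was used, is not given in the sources used here, so the level of Krt8 is less certain than that of Krt18.

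The other ratios were steadier. Krt5 to Krt14 stayed within 1.0 to 1.58 across all 22 libraries, Krt19 to Krt18 within 0.901 to 1.65 and Epcam to Cdh1 within 0.791 to 1.55, although the genes themselves spanned much wider ranges. By contrast the ratio of basal Krt14 to luminal Krt18, also examined after values were seen, differed between mice. In control pads it ran from 0.116 in obese mouse 8 to 0.702 in obese mouse 2, a 6.03-fold range, and in lean mice from 0.137 in mouse 3 to 0.43 in mouse 6. Both pads of a mouse were alike: 0.702 and 0.63 in obese mouse 2, 0.43 and 0.365 in lean mouse 6, and 0.137 and 0.107 in lean mouse 3. The pads of a mouse differed by a median of 1.14-fold and at most by 1.55-fold.

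The lists of other epithelial genes, chosen with earlier results of these data known, were counted in the same obese comparison, where 27.7% of all genes tested were lower. Of 11 further basal genes, 9 fell and 0 rose, with a median log2 fold change of -1.67. They included Trp63, the master regulator of basal cells (-1.92 ± 0.39, adjusted p = 0.000478), the oxytocin receptor Oxtr, which drives myoepithelial contraction (-2.33 ± 0.41, adjusted p = 0.000158), and the hemidesmosome collagen Col17a1 (-1.69 ± 0.39, adjusted p = 0.00135). The integrin genes Itgb4 (-0.57, adjusted p = 0.0967) and Itga6 (0.40, adjusted p = 0.126), also used by vessels, did not pass. Of 5 contractile genes shared with vascular smooth muscle, Mylk and Myh11 fell and 3 did not pass.

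Among luminal genes, 4 of 7 hormone-sensing genes fell, namely Foxa1 (-1.64 ± 0.43, adjusted p = 0.00323), the estrogen receptor gene Esr1 (-1.03 ± 0.27, adjusted p = 0.00341), the prolactin receptor gene Prlr and the progesterone receptor gene Pgr. Of 7 luminal progenitor genes, 6 fell, led by the receptor gene Kit (-1.45 ± 0.27, adjusted p = 0.000252) and Gata3, a regulator of luminal fate (-1.67 ± 0.36, adjusted p = 0.000787). Of 11 milk genes, only 5 had enough counts to be tested and 3 fell: Csn3, which encodes kappa-casein (-1.94 ± 0.36, adjusted p = 0.000245), Wfdc18 and Btn1a1. In lean mice 0 genes of these basal, contractile and luminal lists were called by edgeR and 0 had an unadjusted p under 0.05.

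Of 19 junction genes, 18 fell (median -1.50) and Ocln did not pass (-0.30, adjusted p = 0.391). Pkp1, which encodes a desmosomal plaque protein (-2.31 ± 0.41, adjusted p = 0.000185), the periplakin gene Ppl (-1.83 ± 0.33, adjusted p = 0.000209) and Marveld2, which encodes tricellulin (-1.37 ± 0.27, adjusted p = 0.000458), had the smallest p. Of 13 tested regulators of the epithelial state, of 15 listed, 11 fell, among them the small GTPase gene Rab25 (-1.66 ± 0.25, adjusted p = 4.78e-05) and the protease inhibitor gene Spint2 (-1.16 ± 0.18, adjusted p = 6.02e-05). The transcription factor genes Klf5 (1.25 ± 0.43, adjusted p = 0.0193) and Ovol1 (1.38 ± 0.53, adjusted p = 0.0316) rose, the latter from 0.25 to 1.61 CPM in control to 0.259 to 4.07 CPM.

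Of 6 known repressors of Cdh1, Snai1 (1.71 ± 0.30, adjusted p = 0.000165) and Twist2 (1.56 ± 0.31, adjusted p = 0.000403) rose in obese tumor-associated IWAT and 0 fell. Of all genes tested, 26.8% were called higher there, so 2 of 6 is near that share. Zeb1 (-0.15, adjusted p = 0.0942), Zeb2 (-0.17, adjusted p = 0.353), Twist1 (0.13, adjusted p = 0.501) and Snai2 (-0.50, adjusted p = 0.204) did not pass. In obese against lean tumor-associated IWAT, Snai2 was lower (-1.25, adjusted p = 0.00569). There Snai1 (1.14, adjusted p = 0.00552) and Twist2 (1.67, adjusted p = 0.000457) were higher. These repressor genes are also expressed by stromal cells. For comparison, all 4 macrophage markers rose in both lean and obese tumor-associated IWAT. Of 45 further keratin genes in the table, 7 were tested, 5 of them fell and Krt80 rose (0.66 ± 0.25, adjusted p = 0.0285). The largest of these falls by size was that of Krt15, a keratin of basal cells and hair follicles (-2.69 ± 1.06, adjusted p = 0.0378), from 0.144 to 13.4 CPM to between 0.0 and 3.22 CPM. This call was a weak one, lost in 11 of the 40 alternatives that tested Krt15, each with 1 library or 1 mouse left out (adjusted p up to 0.13).

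**Figure D5:**
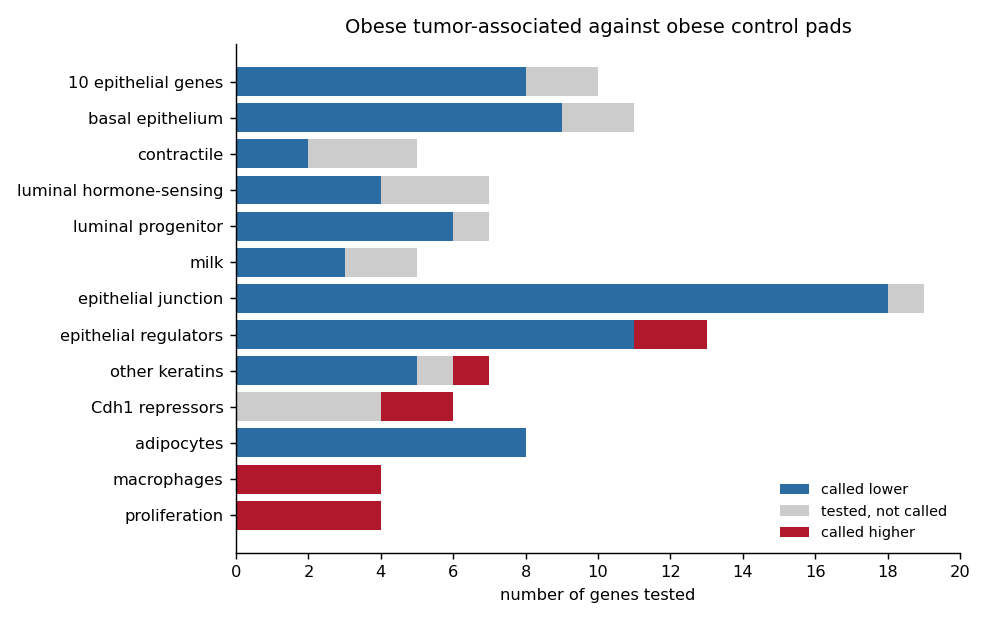
Numbers of genes tested in each list that were called lower (blue), not called (grey) or called higher (red) in obese tumor-associated against obese control IWAT. Of all genes tested 27.7% were lower and 26.8% higher, and the junction list has 18 of 19 lower.

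Obesity itself was compared in the control pads. All 10 genes had lower means in obese than in lean control IWAT, but 3 passed: Elf5 fell 2.27-fold (-1.18 ± 0.37, adjusted p = 0.0325), Epcam 2.07-fold (-1.05 ± 0.35, adjusted p = 0.0426) and Krt8 1.72-fold (-0.78 ± 0.26, adjusted p = 0.0438). Of all genes tested, 7.53% were called lower. The median log2 fold change was -0.97 over the 10 genes and 0.04 over all genes. Epcam alone did not overlap, at 128 to 166 CPM in lean and 35.8 to 105 CPM in obese control IWAT, where 5.59% of all genes were lower without overlap. The other 7 genes had log2 fold changes of -1.10 to -0.82 and adjusted p of 0.059 to 0.359. These calls were fragile: with the libraries of over 100 CPM of B cell or muscle markers left out (obese control mice 1 and 3, obese tumor-associated mice 3 and 8), 0 of the 10 were called by edgeR and 1 had an unadjusted p under 0.05. With the control library of lean mouse 0 or of obese mouse 1, 3 or 8 left out singly, 0 were called and 6 to 8 had an unadjusted p under 0.05. The adipocyte marker sums ran the other way, at 12725 to 22987 CPM in obese against 9374 to 12217 CPM in lean control IWAT. The markers were mixed one by one. Of the 8, Lep and Cidec were called higher, 3 had estimates below 0 and the median log2 fold change was 0.24. The part of adipocyte transcripts in the epithelial levels was not tested. Among the lists, 4 of 11 basal, 2 of 7 hormone-sensing, 3 of 7 progenitor, 4 of 5 tested milk, 3 of 19 junction and 6 of 13 tested regulator genes were lower in obese control IWAT, among them Trp63 (-1.57 ± 0.37, adjusted p = 0.00614), Cited1 (-2.31 ± 0.52, adjusted p = 0.0044) and Muc1 (-1.63 ± 0.31, adjusted p = 0.00132). These counts were as fragile as those above: over 41 alternatives they ran from 1 to 8 basal, 1 to 4 hormone-sensing, 0 to 6 progenitor, 2 to 5 milk, 0 to 11 junction and 1 to 11 regulator genes.

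In tumor-associated IWAT the diets stood furthest apart. All 10 genes were lower in obese than in lean mice and passed the test, where 22.4% of all genes tested were lower and 24.7% higher, with a median log2 fold change of -2.59 against 0.03 over all genes. For all 10 the groups did not overlap; 13.4% of all genes tested were lower without overlap. Elf5 was at 29.4, 24.9, 36.8, 33.0 and 53.4 CPM in lean mice 0, 2, 3, 6 and 9 and at 0.812 to 9.83 CPM in obese mice, a 7.24-fold difference (-2.86 ± 0.40, adjusted p = 2.45e-05). Krt5 was at 82.1, 72.9, 70.4, 118 and 76.9 CPM in lean and at 2.84 to 26.1 CPM in obese mice, 6.9-fold lower in the obese (-2.79 ± 0.44, adjusted p = 6.84e-05). Cdh1 was 6.43-fold lower (-2.68 ± 0.36, adjusted p = 1.74e-05). Krt8 showed the smallest difference, 2.21-fold (-1.14 ± 0.26, adjusted p = 0.00159), from 205 to 484 CPM in lean to 83.8 to 190.1 CPM in obese mice. All 10 remained called with each library, or both pads of each mouse, left out in turn. This comparison shares its libraries with both tumor comparisons above.

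Whether the tumor change itself differed between diets was tested as the obese minus the lean change. The study reported larger tumors in obese than in lean mice. Diet and tumor size therefore cannot be told apart here or in the comparison above. Cdh1 alone passed (-1.74 ± 0.49, adjusted p = 0.0474), where 2.34% of all genes were called lower and 2.58% higher. An unadjusted p under 0.05 was found for 8 of the 10 genes and all 10 estimates were below 0, with a median of -1.60 against -0.04 over all genes. Epcam (-1.64 ± 0.50, adjusted p = 0.0555), Elf5 (-1.67 ± 0.54, adjusted p = 0.0605) and Krt5 (-1.72 ± 0.60, adjusted p = 0.0701) lay just above the threshold, and Krt8 far from it (-0.36 ± 0.37, adjusted p = 0.515). The Cdh1 call was lost with the mouse as a block (-1.81, adjusted p = 0.0784), and DESeq2 called 5 of the 10. Without the tumor-associated library of obese mouse 1, edgeR called 7 of the 10. From the lists, 6 of 13 tested regulators (Rab25, Spint2, St14 and Prss8 with the smallest p), Marveld2 and Pkp1 of the junction genes, Kit and Gata3 of the progenitor genes and Csn3 of the milk genes had lower changes in obese mice, and Twist2 a higher one (1.69 ± 0.46, adjusted p = 0.0463). Of those named, Rab25, Spint2, Marveld2 and Csn3 were still called with the mouse as a block, whereas Kit (adjusted p = 0.078), Gata3 (0.0703), Pkp1 (0.0737), St14 (0.0633), Prss8 (0.0669) and Twist2 (0.0557) were not. Over 41 alternatives the counts ran from 0 to 11 regulator, 0 to 17 junction, 0 to 4 progenitor and 0 to 2 milk genes, the lowest values among others without a low-count filter or without the germline-rich libraries.

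Lastly, the genes whose log2 CPM ran most closely with a basal and a luminal keratin over the 22 libraries were listed, as a description. Next to Krt14 stood Col4a6, a basement membrane collagen gene (r = 0.990), the homeobox gene Irx1 (r = 0.989), Serpinb5, which encodes maspin (r = 0.988), Map2 (r = 0.987) and 2610307P16Rik (r = 0.984). Next to Krt18 stood Fgfr2, a growth factor receptor gene (r = 0.985), 4930412O13Rik (r = 0.982), Slc7a2 (r = 0.976), Tmem56 (r = 0.975) and Capsl (r = 0.974). No gene was on both lists. After the group means were taken out, Col4a6 still stood first beside Krt14 (r = 0.978) and 4930412O13Rik first beside Krt18 (r = 0.971). The points share library, depth and diet group, and nothing about shared function follows from them.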

How the data were processed

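RNA of 22 libraries, 2 pads from each of 11 mice, was analysed. By the paper's methods and the submitters' notes, the authors used prinseq for trimming, STAR 2.4.0f for mapping to mm10 and HTSeq for counting; the deposited values are raw counts per gene symbol without normalization. Strand setting and gene annotation are not given in the sources used here. Groups and mouse numbers came from the sample labels, and 5 HTSeq total lines were left out, of which reads on no gene were 38.5% to 48.8% of the table.

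The counts were fitted with edgeR 4.0.16 under R 4.3.3 (quasi-likelihood test, TMM, default low-count filter by group, 4 groups in one fit without a block), with Benjamini-Hochberg adjustment over 14458 genes and a threshold of 0.05. All p-values named adjusted p are from that fit unless DESeq2 is named. CPM are scaled with TMM; log2 CPM use a prior count of 2. The methods name DESeq2 on raw counts, and DESeq2 1.42.0 was an alternative, with upper-quartile and RLE scaling, no low-count filter, at least 10 counts in every library, a block for the mouse, only the groups compared, and single libraries omitted in turn. Leaving out both pads of a mouse, or libraries rich in B cell, muscle or germline genes, was added after values were seen. The script was tested on simulated data.

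The 10 genes, the lists and the tests were chosen with earlier results of these data known, so no list was tested as such. Named from the lists are up to 4 called genes with the smallest p and at least 10 counts in each higher-group library. Also named are genes a list turns on (Itga6, Itgb4, Ocln, Klf5, Ovol1, Zeb1, Zeb2, Twist1, Snai2, Krt15 and Krt80, named after their values were seen). Both pads come from one mouse, so numbers pair the libraries; deviations of the pads from their group means correlated above 0.1 in 5 of 5 lean mice (median 0.508) and in 4 of 6 obese mice (median 0.168). No 2 libraries of a group agreed within sampling noise (smallest chi-square per degree of freedom 5.69). Shared windows, loci and exon lengths were taken from GENCODE M21 (GRCm38) and promoters from RefSeq (GRCm38.p6).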

Additional observations from a re-analysis of the deposited data

Results flagged for a closer look

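Within 40 groups of 5 or 6 libraries (10 genes in 4 groups), 4 had a library set apart from the rest by the gap criterion. Chance alone marks about 1 in 20 independent groups. The 40 share libraries and hold genes that move together, so no excess over chance can be read from them. Krt5 at 118 CPM and Krt17 at 62.8 CPM were set apart in the same library, the tumor-associated pad of lean mouse 6, which also had the highest Krt14 to Krt18 ratio of the lean tumor-associated pads. Krt17 at 44.1 CPM was set apart in the control pad of obese mouse 2, the mouse with the highest Krt14 to Krt18 ratio of all. Cdh1 at 82.4 CPM was the low value in the control pad of lean mouse 9.

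One change differed between the diets by a test of the difference itself, that of Cdh1, whose obese minus lean tumor change was -1.74 on the log2 scale (edgeR, adjusted p = 0.0474). It passed in 12 of 41 alternative fits, with adjusted p between 0.011 and 0.146 over them.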

How the results depend on the processing

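In lean mice, 0 of the 10 genes were called by edgeR or DESeq2 under any alternative and 0 had an unadjusted p under 0.05. Their estimates lie near 0 and many crossed it. Epcam turned to -0.01 with DESeq2, RLE scaling, no filter, at least 10 counts in every library, only the groups compared, or libraries rich in B cell, muscle or germline genes left out, to -0.03 with upper-quartile scaling and to -0.03 with the mouse as a replicate block, where Krt17 was -0.03. With 1 library or 1 mouse left out, the lean estimates ran from -0.19 to 0.07 for Krt5, -0.19 to 0.07 for Krt14, -0.51 to 0.40 for Krt17, -0.18 to 0.31 for Krt7, -0.03 to 0.32 for Krt8, -0.16 to 0.22 for Krt18, -0.06 to 0.35 for Krt19, -0.14 to 0.11 for Epcam, -0.06 to 0.21 for Cdh1 and -0.16 to 0.22 for Elf5; in obese mice that of Krt8 ran from -0.28 to 0.02, the latter without mouse 0.

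In obese mice the number called lower was 7 to 9 with a library or mouse left out and 5 without the libraries rich in germline genes. Krt5, Krt14, Epcam, Cdh1 and Elf5 were called in every obese alternative in which they were tested. For obese against lean control IWAT the number was 3, and 1 without a low-count filter, 7 with only the groups compared, 0 without the libraries rich in B cell or muscle markers, 8 without those rich in germline genes, and 0 to 8 with 1 library or mouse left out. For the difference of the changes it was 1, and 5 with DESeq2, 0 without a filter, 0 with the mouse as a replicate block, 4 without the libraries rich in B cell or muscle markers, 0 without those rich in germline genes, and 0 to 8 with 1 library or mouse left out (7 without the tumor-associated library of obese mouse 1, 8 without both its pads, 0 in 17 of the 22 fits without a library, where 7 to 9 had an unadjusted p under 0.05). The block changed no other call of these 10 genes. Between the diets in tumor-associated IWAT, each gene was called in each alternative that tested it (8 genes with at least 10 counts in every library).

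Over all genes, the lean tumor comparison called 605, and 913 with DESeq2, 1437 with only the groups compared, 1369 without the germline-rich libraries and 119 to 952 with 1 library or mouse left out. The germline-rich libraries left out gave 4849 in place of 7882 for obese tumor-associated against control, 4057 in place of 2468 for the control diets and 4432 in place of 6802 for the tumor-associated diets. With 1 library or mouse left out these 3 ran from 6341 to 8403, 1590 to 3428 and 5787 to 7522. The difference called 711, and 2364 with DESeq2, 18 without a filter, 2993 without the libraries rich in B cell or muscle markers, 10 without those rich in germline genes, and 0 to 3568 with 1 left out. In obese mice, list counts moved with at least 10 counts in every library, where fewer genes were tested (3 progenitor, 10 junction and 8 regulator genes). Over 42 alternatives the contractile count ran from 1 to 4 and the hormone-sensing count from 1 to 5. The causes were not tested. The change of Krt17 in obese tumor-associated against control IWAT had the largest standard error of the 10 genes (0.70). Krt17 held 1 to 111 counts in the obese tumor-associated libraries. Elf5 held 6 to 76 counts there and had a standard error of 0.38. The reason for this spread of Krt17 was not tested.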
